A study of Rattus norvegicus with 2 samples.

Results

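The EGR and NR4A families of early transcription factors were examined as 7 genes, Egr1, Egr2, Egr3 and Egr4 with Nr4a1, Nr4a2 and Nr4a3. They were selected by gene name, as a set picked with earlier results of these data known, and they are 7 of the 27235 genes that have a probe on the array. Their 11 probes occupied 20 spots on each array. Gene expression was measured in IEC6, an epithelial cell line from rat small intestine, grown on dishes. The Na2S3 group received sodium trisulfide, an inorganic polysulfide, for 60 min, and the control group received water for 60 min. The protocol places the exposure in DMEM with a reduced share of fetal calf serum. The dose is 100 µM by the sample's treatment label and by the series' design, but 100 mM by the protocol, and this conflict was not resolved. Total RNA of each group went onto 1 single-colour (Cy3) Agilent array. With 1 array per group there is no replicate check and no test, and precision is limited by that number. The words higher and lower therefore describe these arrays alone, and no p-value is given.

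EGR proteins are zinc finger transcription factors that bind GC-rich DNA. NR4A proteins are orphan nuclear receptors that bind DNA as monomers at a site called NBRE, or as dimers, and are active without a known hormone ligand. Genes of both families are classed as immediate early genes: growth factors, calcium, cyclic AMP and stress can switch them on within minutes from factors already present in the cell, mainly SRF with its ETS partners, CREB and MEF2. The EGR proteins are held in check by the corepressors NAB1 and NAB2, and Nab2 is itself a reported EGR1 target.

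Signals are given in intensity units as the scanner software wrote them, and as a multiple of the 75th percentile of the array's non-control probes, which was 478 on the Na2S3 array and 413 on the water array. Ratios are log2 values of the Na2S3 array over the water array after that scaling. Genes were counted past a log2 ratio of 1 in either direction, that is 2-fold. The spot error is the SD between repeat spots of similar brightness, divided by the square root of the number of spots of the probe. For a probe with 1 spot it is that SD itself. It covers variation between spots and not between cultures. Both arrays gave a value for 13062 genes, of which 123 (0.942%) stood 2-fold or more higher with Na2S3 and 81 (0.62%) 2-fold or more lower. The median log2 ratio of all measured genes was -0.04, and 93.6% of them lay within 1.5-fold.

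Of the 7 EGR and NR4A genes, 5 were measured on both arrays and 2, Egr3 and Egr4, were well above background on neither. Nr4a1, Egr2, Egr1 and Nr4a3 were at least 2-fold higher on the Na2S3 array, so 4 of the 5 measured genes passed a size that 0.942% of all measured genes passed. None of the 5 was at least 2-fold lower, against 0.62% of all measured genes, and Nr4a2 alone had a negative ratio. The median log2 ratio of the 5 was 1.28. Their brightness differed widely. Egr1 lay above the 75th percentile on both arrays, Egr2 lay above it on the Na2S3 array alone, and the 3 NR4A genes lay below it on both.

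**Figure D1:**
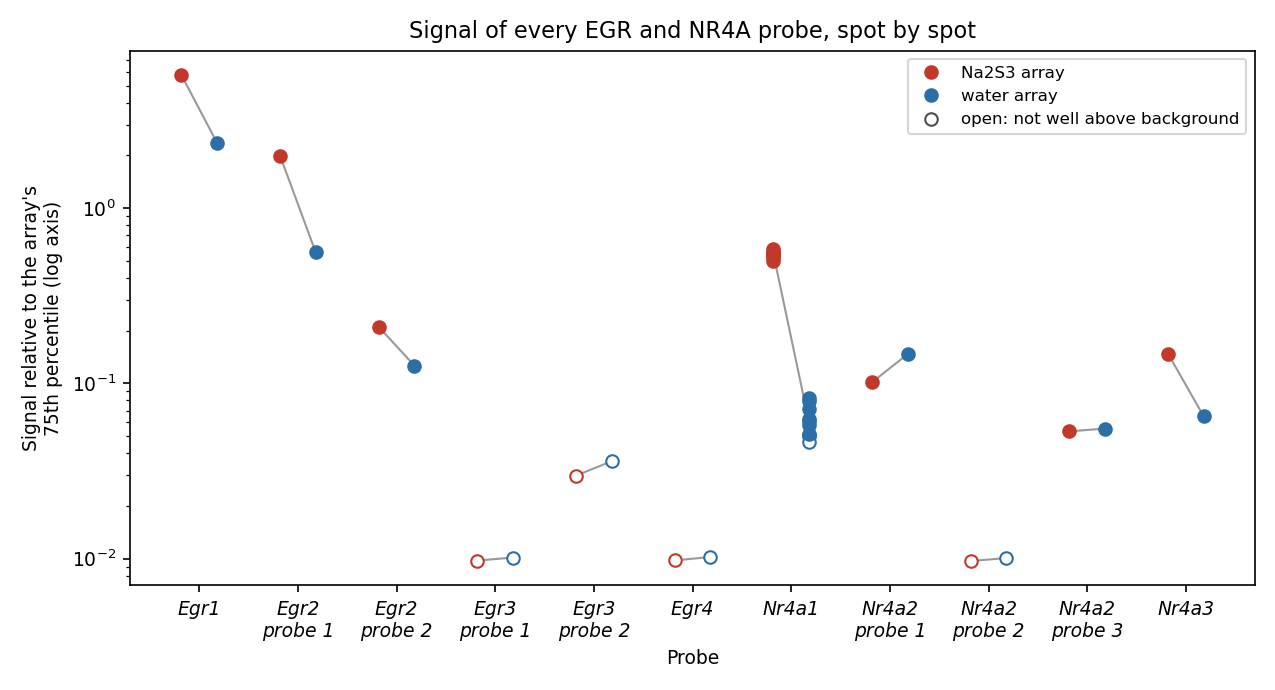
Each point is a spot of an EGR or NR4A probe, with its processed signal divided by the array's 75th percentile on a log axis. For each probe the Na2S3 array is on the left in red and the water array on the right in blue, a line joins the means, and open points were not well above background. All 10 Nr4a1 spots of the Na2S3 array lie above all 10 of the water array, while the Egr3 and Egr4 points are open on both arrays.

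Egr1, the best studied family member and a factor in growth and injury responses, was read by 1 spot per array. Its signal was 2748 on the Na2S3 array (5.75 times the 75th percentile) and 979 on the water array (2.37 times). The water array thus already held a clear Egr1 signal, and the Na2S3 array stood 2.43-fold above it (log2 ratio 1.28, spot error 0.08). Of all measured genes, 71 (0.544%) had a higher ratio. The Egr1 probe lies at chr18:27346058-27346117 on the plus strand in the rn4 coordinates of the files. Here and below, the exon or UTR position of a probe was not analysed.

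Egr2, a factor known for its roles in myelinating Schwann cells and in lymphocytes, had the largest ratio of the EGR genes at its brighter probe, but not at its dimmer probe or as the median over both. Its brighter probe gave 951 on the Na2S3 array (1.99 times the 75th percentile) and 232 on the water array (0.562 times). That is a 3.54-fold difference (log2 ratio 1.83, spot error 0.10), and 30 measured genes (0.23%) had a higher ratio. The dimmer Egr2 probe gave 100.4 on the Na2S3 array and 52.3 on the water array, a 1.66-fold difference (log2 ratio 0.73, spot error 0.19). Both Egr2 probes were therefore higher on the Na2S3 array, but by unequal amounts. Their log2 ratios differ by 1.09, with a spot error of 0.22 for that difference. The brighter probe lies at chr20:21883940-21883999 and the dimmer at chr20:21884977-21885036, both on the minus strand in rn4 and 1037 bases apart. Only the brighter one passed 2-fold, so the count of Egr2 as 2-fold higher rests on that probe. The median over both probes was 1.28, level with Egr1.

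Egr3, a relative with roles in muscle spindle formation and T cells, was not flagged well above background on either array. One Egr3 probe, at chr15:50479803-50479862 on the plus strand in rn4, gave 14.2 on the Na2S3 array and 14.9 on the water array. The other, for which the files give no position, gave 4.66 on the Na2S3 array and 4.20 on the water array. Egr4, the family member with the fewest known functions, gave 4.67 on the Na2S3 array and 4.23 on the water array from 1 probe at chr4:119765289-119765348 on the minus strand in rn4. The lowest signal of any probe well above background was 20.5 on the Na2S3 array and 18.3 on the water array, so all of these lie below it. No ratio is given for either gene.

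Nr4a1, which encodes the orphan receptor also called NUR77 or TR3, had the highest ratio of the 7 genes. Its probe was spotted 10 times on each array. The spots read 238 to 278 on the Na2S3 array, with a median of 266, a mean of 262 and an SD of 11.4 between spots. On the water array they read 19.0 to 34.1, with a median of 24.6, a mean of 25.4 and an SD of 5.30. The 2 sets of spots did not overlap, but the water spots lay close to the background: 8 of 10 were well above it there, against 10 of 10 on the Na2S3 array. The log2 ratio was 3.18, a 9.08-fold difference, and the 10 spot pairs ranged from 2.75 to 3.60. Their SD of 0.29 gives an error of 0.09 for the mean over spots. Only 6 measured genes (0.0459%) had a higher ratio. The probe lies at chr7:140020442-140020501 on the plus strand in rn4. The size of the Nr4a1 ratio depends on how background is treated. The normexp correction adds an offset of 50 to every spot, more than the Nr4a1 signal on the water array. It therefore shrinks the ratios of dim probes by design and is no independent check of them. With it the signals became 330 on the Na2S3 array and 93.3 on the water array and the log2 ratio 1.64.

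Nr4a3, which encodes the receptor also called NOR1, was dim on both arrays. Its signal was 70.5 on the Na2S3 array (0.148 times the 75th percentile) and 26.8 on the water array (0.0649 times), from 1 spot each. The log2 ratio was 1.18 (2.27-fold) with a spot error of 0.34, and 80 measured genes (0.612%) had a higher one. That ratio exceeds 1 by less than its own spot error. With normexp the signals were 145 on the Na2S3 array and 103 on the water array and the log2 ratio 0.30, so the gene did not pass 2-fold there and 3 of the 5 measured genes did. The Nr4a3 probe lies at chr5:64753210-64753269 on the plus strand in rn4.

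Nr4a2, which encodes NURR1, a receptor required for midbrain dopamine neurons, had a negative ratio within 2-fold, and its probes lay near the background. The brightest of its 3 probes gave 48.5 on the Na2S3 array and 60.8 on the water array, a log2 ratio of -0.53 with a spot error of 0.34. The other measured probe gave 25.4 on the Na2S3 array and 22.9 on the water array, a log2 ratio of -0.05 with a spot error of 0.49, and this value was positive at 0.07 with quantile normalization. A probe for a predicted transcript variant gave 4.63 on the Na2S3 array and 4.17 on the water array and was above background on neither. The 3 probes lie at chr3:38866258-38866317, chr3:38867021-38867080 and chr3:38864703-38864762 on the minus strand in rn4. No Nr4a2 probe reached 2-fold either way, and the median over the measured pair was -0.29.

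**Figure D2:**
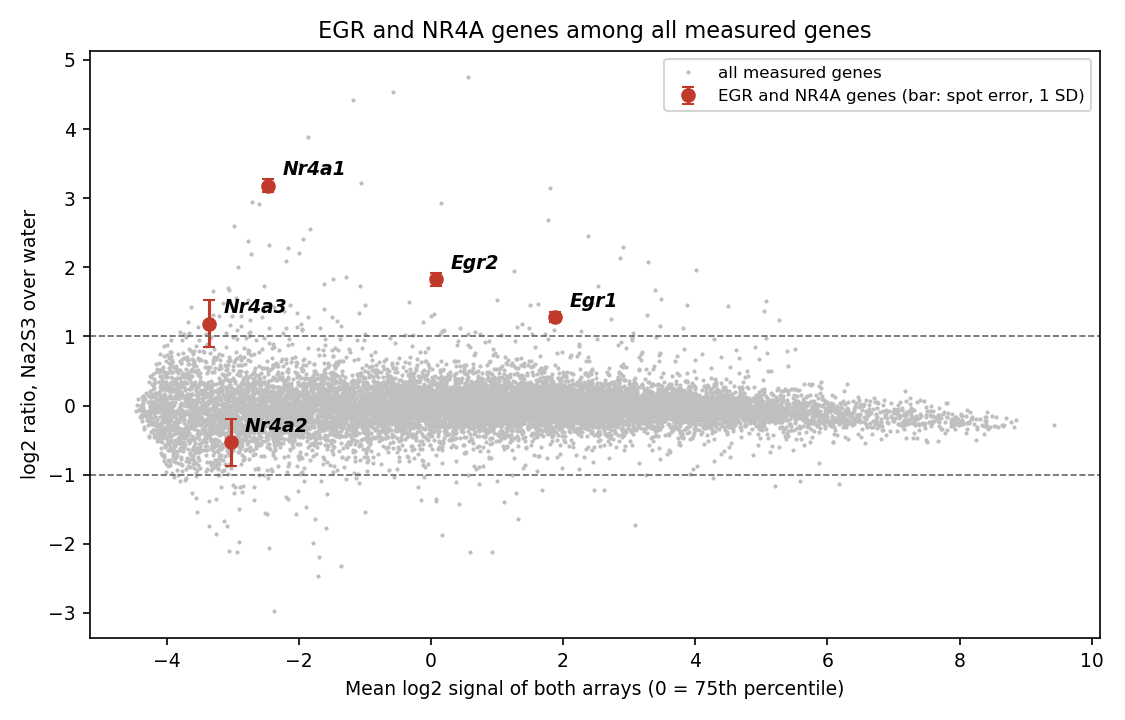
Each grey point is 1 of 13062 measured genes, with the mean log2 signal of both arrays (0 is the 75th percentile) on the horizontal axis and the log2 ratio of Na2S3 over water on the vertical axis. Red points are the 5 measured EGR and NR4A genes with bars of 1 spot error, and dashed lines mark 2-fold. Nr4a1, Egr2 and Egr1 lie above the upper line by more than their bars, the bar of Nr4a3 crosses it, and Nr4a2 lies below 0.

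Ordered by ratio, the genes ran Nr4a1, Egr2, Egr1, Nr4a3 and Nr4a2. The log2 ratio of Nr4a1 exceeded that of Egr2 by 1.36, with a spot error of 0.13 for the difference. Egr2, at its brighter probe, exceeded Egr1 by 0.54 with an error of 0.13. Egr1 and Nr4a3 differed by 0.10 with an error of 0.35, so the data give no order between them. Nr4a3 exceeded Nr4a2 by 1.72 with an error of 0.48, and the widest gap of any pair, 3.72 with an error of 0.35, lay between Nr4a1 and Nr4a2 of the same family. Egr2 exceeded Nr4a2 by 2.36 with an error of 0.35. With normexp, whose offset shrinks the ratio of the dim Nr4a1 probe most, the order of the highest pair was not resolved, at 1.64 for Nr4a1 and 1.60 for Egr2.

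**Figure D3:**
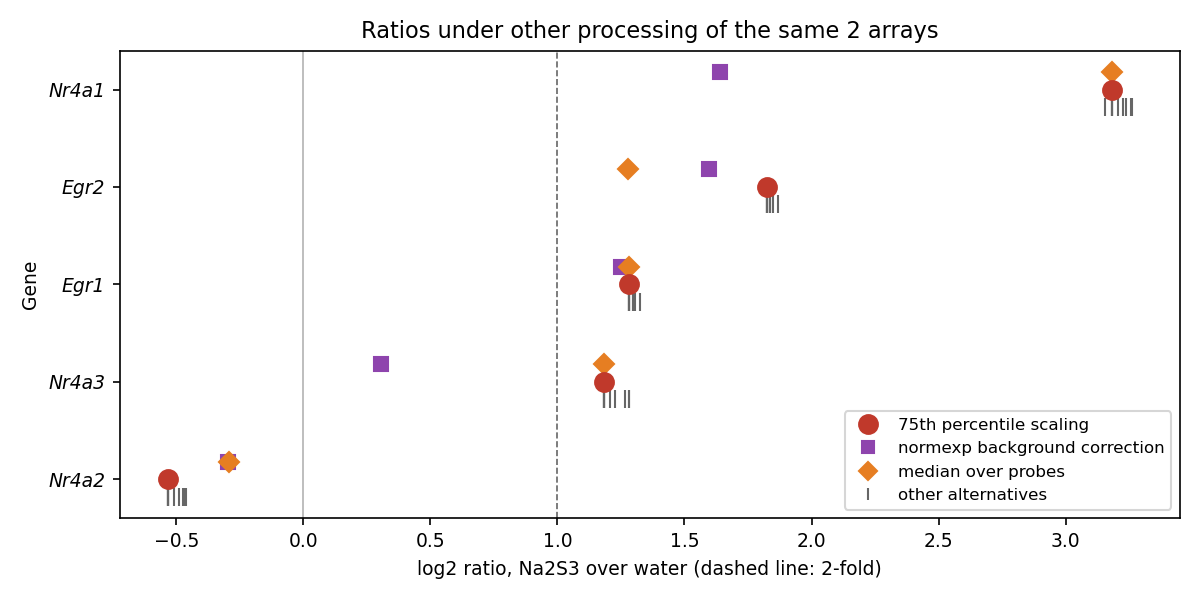
The log2 ratio of each measured gene (horizontal axis, Na2S3 over water) is drawn under every processing of the same arrays that was tried. Circles are the values in the text, squares use normexp background correction, diamonds the median over a gene's probes, and grey ticks the other alternatives. Nr4a1 moves to 1.64 and Nr4a3 to 0.30 with normexp, while Egr1 stays between 1.25 and 1.32.

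For each gene that passed 2-fold, the 3 named genes with the closest log2 ratio were taken as its nearest, a likeness of 1 number over 2 arrays. For Nr4a1 (3.18) these were Sesn2 (3.21), Vegfa (3.15) and Chac1 (2.93). For Egr2 (1.83) they were Gbx2 (1.83), Plk3 (1.85) and Spry4 (1.76). For Egr1 (1.28) they were P2ry2 (1.29), Cep85l (1.27) and Plcxd2 (1.29), and for Nr4a3 (1.18) they were Serpinb2 (1.19), Arhgap5 (1.17) and Mthfd2l (1.17).

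The promoters are shown because the sites that are known to drive immediate early genes lie close to the start. Of the 4 genes that were higher, Nr4a3 had no promoter entry. Egr4 was at background on both arrays, so it is not a gene shown to lack a response. RefSeq sequences of assembly GRCr8 were matched by symbol for 5 of the 7 genes, Egr1, Egr2, Egr4, Nr4a1 and Nr4a2. Each window holds the 250 bases before the start site of 1 transcript, 5′ to 3′ on the strand of the gene. The Nr4a2 window, at chr3:62104888-62105137 on the minus strand, was searched but is not printed. Capitals mark the CArG box, the SRF site, and the half-site TGACG of the cyclic AMP response element (CRE), the CREB site, read on either strand. Egr1 is at chr18:26736828-26737077 on the plus strand, Egr2 at chr20:21054442-21054691 and Egr4 at chr4:119607818-119608067 on the minus strand, and Nr4a1 at chr7:134259888-134260137 on the plus strand.
Egr1: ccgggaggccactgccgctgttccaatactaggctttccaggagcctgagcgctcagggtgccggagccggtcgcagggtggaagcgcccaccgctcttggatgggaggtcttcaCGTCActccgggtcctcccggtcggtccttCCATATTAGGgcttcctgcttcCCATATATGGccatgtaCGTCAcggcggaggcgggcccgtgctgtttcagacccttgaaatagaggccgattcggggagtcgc
Egr2: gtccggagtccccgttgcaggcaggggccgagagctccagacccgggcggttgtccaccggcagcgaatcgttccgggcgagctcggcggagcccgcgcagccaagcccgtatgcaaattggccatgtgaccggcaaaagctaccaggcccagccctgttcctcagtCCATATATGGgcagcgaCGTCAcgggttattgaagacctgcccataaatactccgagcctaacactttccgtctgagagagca
Egr4: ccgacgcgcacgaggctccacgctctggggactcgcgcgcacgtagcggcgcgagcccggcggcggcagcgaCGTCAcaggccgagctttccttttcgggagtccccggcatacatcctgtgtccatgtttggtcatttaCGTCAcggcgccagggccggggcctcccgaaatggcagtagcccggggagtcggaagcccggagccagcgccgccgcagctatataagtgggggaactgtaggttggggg
Nr4a1: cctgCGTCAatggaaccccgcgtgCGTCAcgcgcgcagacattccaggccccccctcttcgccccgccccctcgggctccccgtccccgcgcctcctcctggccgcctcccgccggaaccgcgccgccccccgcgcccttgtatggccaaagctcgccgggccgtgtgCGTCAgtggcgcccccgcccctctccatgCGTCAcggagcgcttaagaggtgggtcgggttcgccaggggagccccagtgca

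Egr1 held 2 CArG boxes, at bases -105 to -96 and -83 to -74 before the start, and Egr2 held 1, at -83 to -74. In both genes a CRE half-site stood at -66 to -62, just downstream of the nearer CArG box. Egr1 held 2 half-sites, the other at -135 to -131, and Nr4a1 held 4. Egr4 held 2 half-sites and no CArG box, and the Nr4a2 window held 1 half-site. All 5 windows therefore held TGACG, which 18.2% of the 33469 promoters in the table hold, and this includes Egr4, whose signal was at background, and Nr4a2, whose ratio was negative. A CArG box is found in 1.5% of all promoters. At least 4 half-sites are found in 0.173%, at least 2 CArG boxes in 0.0209%, and a CArG box with a half-site in 0.23%. The cut-offs of 4 and 2 equal the counts in Nr4a1 and Egr1, and the pair is what Egr1 and Egr2 hold. The shares for these combinations therefore describe the windows and are no test of how unusual they are.

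The other motifs searched, on both strands, were the EGR sites GCGTGGGCG and GCGGGGGCG, the NBRE AAAGGTCA, the full CRE TGACGTCA, the AP-1 site TGANTCA and the antioxidant response element core TGACNNNGC. Nr4a1 held GCGGGGGCG at -73 to -65 on the minus strand, a site that 2.45% of promoters hold, and none of the 5 windows held GCGTGGGCG (0.478% of promoters). None held the NBRE (1.24%), the full CRE (1.59%) or the AP-1 site (6.34%). Egr2 at -70 to -62 and Egr4 at -182 to -174 held the antioxidant core (10.1% of promoters), in both cases overlapping a half-site. The GC content was 74.8% for Nr4a1, 68% for Egr4, 63.2% for Egr1 and 62% for Egr2, and 52% for Nr4a2, which is near the median of 51.2% over all promoters. A letter match is not evidence of binding. The table's start lies 12985 bases inside the annotated span of Nr4a1, 11039 bases inside that of Nr4a2 and 760 bases inside that of Egr2, so other transcripts of these genes begin elsewhere.

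**Figure D4:**
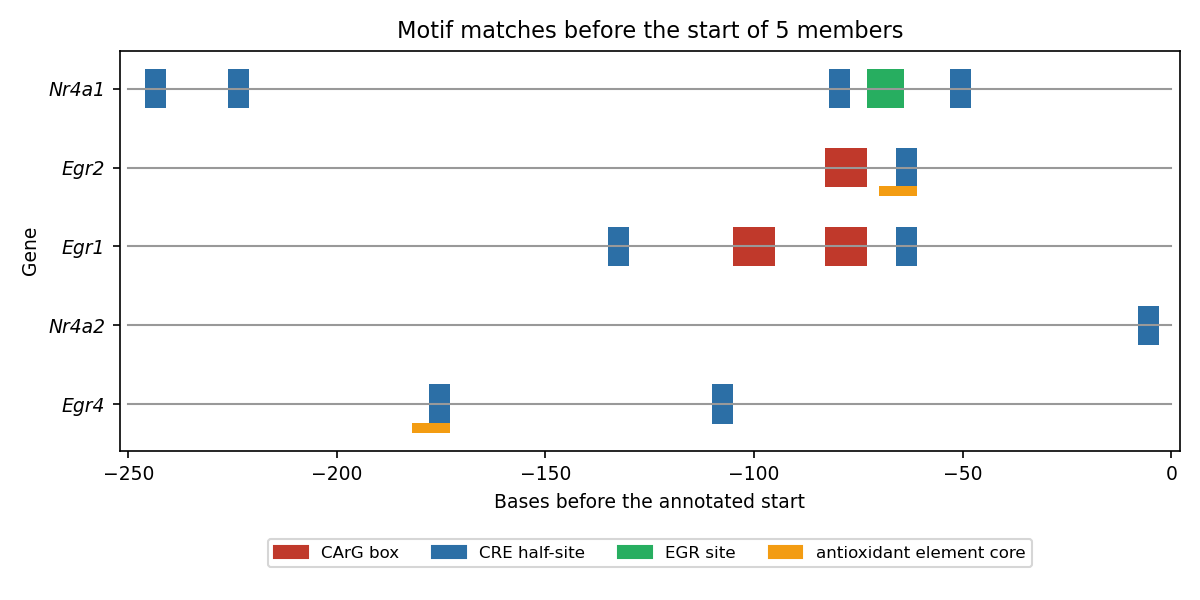
Motif matches are drawn by their distance in bases from the annotated start (0, on the right) for the 5 genes with a promoter entry. Red boxes are CArG boxes, blue boxes CRE half-sites, the green box an EGR site and orange bars the antioxidant element core. Egr1 and Egr2 share a CArG box and a half-site at the same distances, and Nr4a1 has 4 half-sites.

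The factors that are known to switch the EGR and NR4A genes on were read with their regulators, which include repressors such as Hdac4. None of the measured genes passed 2-fold, a size that 0.942% of all measured genes passed on the higher side and 0.62% on the lower. Lists this short can hold none at such shares. SRF, which binds the CArG box, had a signal of 6050 on the Na2S3 array and 3516 on the water array for Srf (log2 ratio 0.57). Of SRF and its cofactors, 5 of the 6 with a probe were measured, and 0 passed 2-fold in either direction, with a list median of 0.09. The ETS partners Elk4, Elk3 and Elk1 had log2 ratios of 0.18, 0.09 and -0.06. Of the CREB and MEF2 activators and their regulators, 14 of 16 were measured and 0 passed 2-fold either way. By the brightest measured probe of each gene, ratios were positive in 13 of the 14, with a median of 0.13, beside -0.04 for all measured genes. Not all probes shared that sign: those of Creb1 ran from -0.12 to 0.52 and those of Crebbp from -0.10 to 0.14. The largest gene values belonged to Mef2d (0.53), a MADS-box activator of Nr4a1, and to Hdac4 (0.42), a histone deacetylase that represses MEF2 factors. A dimmer Ep300 probe gave 0.63, where its brighter one gave 0.18. The Mef2d value is that of its brighter probe, and its other measured probe gave 0.06. Crtc3 (0.25), a CREB coactivator, and Atf1 (0.19), a CREB relative, followed.

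Among the partners of the proteins themselves, the EGR corepressor gene Nab2 had 15404 on the Na2S3 array and 9910 on the water array (log2 ratio 0.43). A second Nab2 probe had a log2 ratio of -0.06, so its probes did not share a direction. Nab1 had a log2 ratio of 0.26, and neither corepressor gene passed 2-fold. Of the other zinc finger factors that bind GC-rich sites, all 5 were measured, with a median of -0.15. Of these, 0 passed 2-fold either way, beside 0.942% higher and 0.62% lower among all measured genes. Sp3 had a log2 ratio of -0.38, Sp1 0.31, Sp4 -0.26 and Sp2 0.15. The Sp4 probe was dim, with a spot error of 0.34. The RXR genes encode dimer partners of NUR77 and NURR1. Rxrb had a log2 ratio of 0.24 and Rxra one of 0.10, and the remaining RXR gene was well above background on neither array. Rxra was dim, with a spot error of 0.49.

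Nuclear receptors outside the NR4A family, many of which bind hormones, fatty acids or sterols, were counted in the same way. Of 40 with a probe, 24 were measured on both arrays, with 13 positive ratios and a median of 0.04. Of the 24, 0 passed 2-fold in either direction, beside 0.942% higher and 0.62% lower among all measured genes. By the brightest measured probe of each gene, the largest absolute log2 ratios were those of Nr0b1 (-0.81), Nr1h3 (0.51), Ppara (0.49) and Nr2f2 (-0.47). A second measured Nr2f2 probe gave -0.89, and a second Thrb probe gave -0.57 where the brighter one gave -0.10. Nr0b1 read 24.4 on the Na2S3 array and 37.0 on the water array, with a spot error of 0.49, and Nr1h3 and Ppara were similarly dim. Nr1i3 exceeded background with Na2S3 only, by at least 1.11-fold over water, and Nr0b2 exceeded it in water only, where it was at least 1.31-fold higher. Each was read by 1 spot near the background, with a spot error of 0.49, so neither bound is firm. The remaining 14 were well above background on neither.

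Of 24 genes reported as targets of EGR1, 22 were measured. Of these, 4 passed 2-fold on the higher side with Na2S3, as 0.942% of all measured genes did, and 0 on the lower side, as 0.62% did. The list median was 0.24, beside -0.04 for all measured genes, and 17 of the 22 ratios were positive. Vegfa, an angiogenic growth factor gene, read 4964 on the Na2S3 array and 485 on the water array (log2 ratio 3.15), and its second probe gave 2.74. F3, which encodes tissue factor, the starter of blood coagulation, read 7261 on the Na2S3 array and 1429 on the water array over 10 spots (log2 ratio 2.14). Plaur, the urokinase receptor gene, read 952 on the Na2S3 array and 379 on the water array (log2 ratio 1.12). With normexp, 2 genes of the list passed 2-fold. These genes have other known activators, and whether EGR1 acts on them here was not tested.

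Of 20 genes reported as targets of NR4A receptors, 12 were measured. Of these, 0 passed 2-fold in either direction, beside 0.942% higher and 0.62% lower among all measured genes. The median log2 ratio of the 12 was -0.25, with 3 positive ratios among them. The other 8 genes were well above background on neither array. Bdnf, a neurotrophin gene, read 64.4 on the Na2S3 array and 34.4 on the water array (log2 ratio 0.70). G6pc1, the glucose-6-phosphatase gene, read 29.8 on the Na2S3 array and 42.1 on the water array (-0.71). Fbp2, a gluconeogenic enzyme gene, had a log2 ratio of -0.58 and Cyp21a1, a steroid hydroxylase gene, one of -0.54. All 4 are dim, with spot errors of 0.34 to 0.49. Many genes of this list are known from liver, adrenal gland or neurons.

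Other early response genes were set beside the EGR and NR4A genes. Of 30 with a probe, 28 were measured. Of these, 13 passed 2-fold on the higher side with Na2S3 (0.942% of all measured genes) and 0 on the lower side (0.62%). The list median was 0.87 and 26 of 28 ratios were positive. The largest belonged to Atf3 (4.75), Fosl1 (4.41), Myc (2.46) and Dusp5 (2.41), the last a phosphatase gene of the ERK pathway. Arc, a synaptic plasticity gene, exceeded background with Na2S3 only, by at least 2.92-fold over water. Among the 8 AP-1 subunit genes with Atf3, 3 were at least 2-fold higher (again beside 0.942% of all genes), namely Atf3, Fosl1 and Junb (2.83-fold), and the list median was 0.42. Fos, a classical immediate early gene often followed beside Egr1, had a log2 ratio of 0.38, and Fosb one of -0.15. Both were dim. Fos read 85.1 on the Na2S3 array and 56.7 on the water array, with a spot error of 0.14. Fosb read 27.8 on the Na2S3 array and 26.6 on the water array, near the background, with a spot error of 0.49. The log2 ratio of Nr4a1 lay below those of Atf3 and Fosl1 and above those of all other measured genes of this list. That rank rests on its near-background signal on the water array. With normexp the log2 ratio of Nr4a1 was 1.64, and its rank in this list was not read there.

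**Figure D5:**
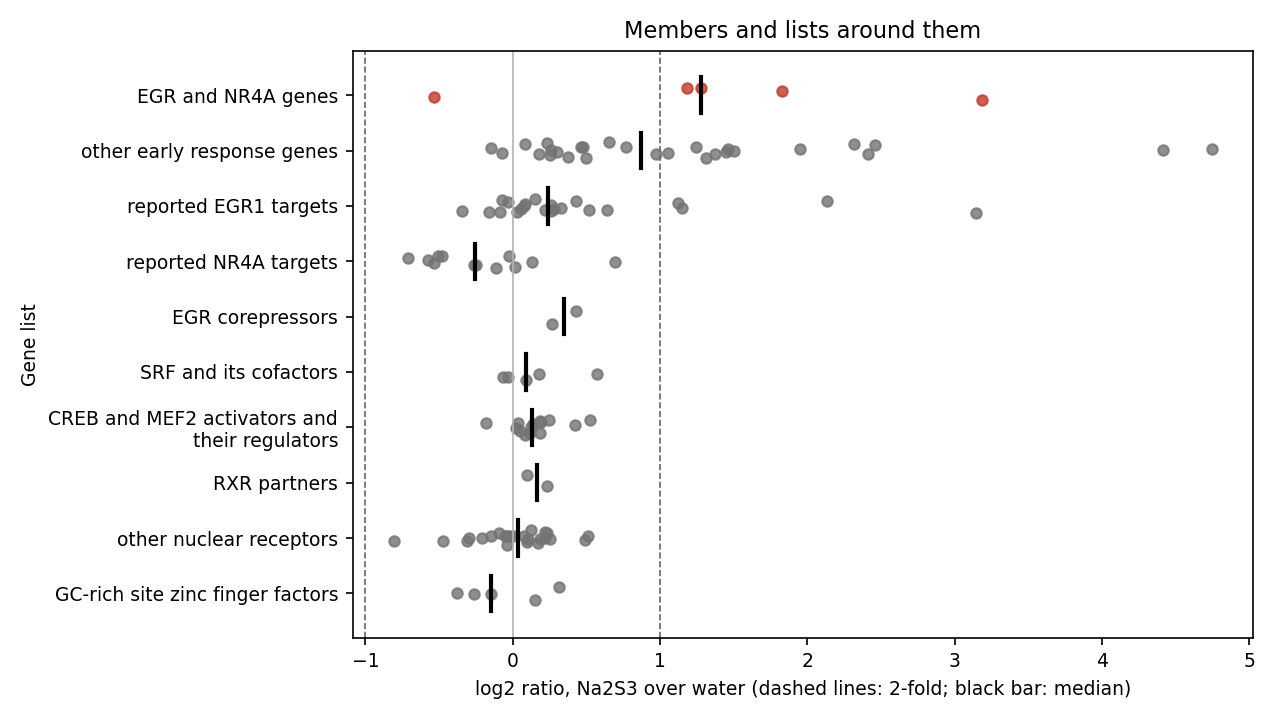
Each point is the log2 ratio (horizontal axis, Na2S3 over water) of a measured gene, in rows by gene list, with a black bar at the list median and dashed lines at 2-fold. The EGR and NR4A genes in red have a median of 1.28 and the other early response genes one of 0.87. No measured gene passes a dashed line among the corepressors, SRF cofactors, CREB and MEF2 regulators, RXR partners, other nuclear receptors, GC-rich site factors or reported NR4A targets. Over all measured genes, 0.942% pass the upper line and 0.62% the lower.

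Cell type markers were read for the label of the cells. Of 14 intestinal epithelial markers, 6 were measured. Krt8 (18283 on the Na2S3 array and 15892 on the water array), Cdh1 (16264 and 14703) and Cdx1 lay above the 75th percentile on both arrays. Krt18, Krt19 and Ascl2 lay below it on both. The other 8 were well above background on neither array, including Vil1, Epcam, Cdx2 and Lgr5. The scaled signals of the 14 summed to 78.0 on the Na2S3 array and 80.5 on the water array. Of 10 fibroblast or mesenchymal markers, 8 were measured, with sums of 691 on the Na2S3 array and 765 on the water array. Col1a1, Col1a2, Col3a1, S100a4 and Vim were bright. Acta2, Thy1 and Des lay below the 75th percentile on both arrays, and Pdgfra and Pdgfrb were at background. Immune markers, with 2 of 5 measured, summed to 0.283 on the Na2S3 array and 0.362 on the water array. Endothelial markers, with 3 of 4 measured, summed to 6.71 on the Na2S3 array and 8.15 on the water array. Of these, Vwf read 2253 on the Na2S3 array and 2485 on the water array, and Tek 896 on the Na2S3 array and 839 on the water array, both above the 75th percentile. Cdh5 was dim, at 48.7 on the Na2S3 array and 42.6 on the water array, and Pecam1 was at background. For neuronal markers, with 1 of 4 measured, the sums were 0.345 on the Na2S3 array and 0.334 on the water array. No marker passed 2-fold, beside 0.942% higher and 0.62% lower among all measured genes. The log2 ratios of the markers ran from -0.43 to 0.12. The part of cell makeup in the ratios of the EGR and NR4A genes was not tested. In RNA from a whole dish, fewer cells of a type and less RNA per cell cannot be told apart.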

How the data were processed

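Members and gene lists were chosen with earlier results of these data known, and the lists name genes from general knowledge. Groups came from the treatment labels. The deposited scanner files hold spot intensity values of 1 channel, background-subtracted and spatially detrended by Agilent Feature Extraction 10.7.1.1, per the file headers. The submitters' processing notes name 9.5.1.1. The authors' deposited value table also holds intensity values, with no normalization method stated in the labels or headers. Its results were close to those of quantile normalization of the scanner values. Both gave 141 genes 2-fold higher, 67 genes 2-fold lower and a log2 ratio of 3.26 for Nr4a1.

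Control and outlier spots were left out (390 on the Na2S3 array, 448 on the water array), log2 signals were averaged over a probe's spots, and each array's 75th percentile was subtracted. The percentiles differed by 0.21 between arrays, and the 7 spike-in probes above background by a median of 0.16 (range 0.09 to 0.32). No spot was saturated. A probe counted as measured when over 50% of its spots were flagged well above background on both arrays, and a gene took its brightest such probe. For a probe above background on 1 array, the bound is its signal over the higher of its own dim signal and the lowest signal well above background on the other array. Spot errors come from probes with at least 8 spots, in bins of signal, or from a probe's own 10 spots. Of 45598 probes, 21109 were named through RefSeq accessions, 14743 by the files, and 9746 had an identifier only.

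The text names the 7 genes, up to 4 genes of each list with the largest absolute ratio, the 3 nearest genes and up to 3 markers; others were chosen after their values were seen. A list gene that this rule selects is not reported here. Alternatives used limma 3.58.1 in R 4.3.3, and scripts were tested on simulated data. A planned comparison of the proteins was not run.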

Additional observations from a re-analysis of the deposited data

Results flagged for a closer look

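One probe that the comparison did not use carried a signal on the Na2S3 array alone. The files describe it as a predicted transcript variant of Nr4a3 but give it a transcript identifier in place of the gene name. It read 89.7 on the Na2S3 array, well above background, and 11.5 on the water array, not well above background, which makes it at least 4.23-fold higher on the Na2S3 array. The probe lies at chr5:64754182-64754241 on the plus strand in rn4, 972 bases from the Nr4a3 probe, which had 2.27-fold. With normexp the variant probe read 157 on the Na2S3 array and 80.7 on the water array, a log2 ratio of 0.77. The bound of 4.23-fold therefore depends on how background is treated. The water signal of the variant probe was not well above background, so neither value is firm. The variant probe and the Nr4a3 probe were each read by 1 spot.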

How the results depend on the processing

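Across 12 alternatives of scaling, background correction, filter, probe choice and spot handling, and the deposited value table, the number of EGR and NR4A genes at least 2-fold higher was 4 in all but normexp, which gave 3, and 0 were 2-fold lower. Several of these alternatives could hardly change that count. Egr1, the brighter Egr2 probe and Nr4a3 were each read by 1 unflagged spot per array, which spot handling cannot alter. The looser filters left the ratios of the 4 higher genes unchanged. Scaling to a single value per array moves every ratio by the same amount. The deposited table was close to quantile normalization. The median log2 ratio of the EGR and NR4A genes stayed between 1.18 and 1.32. With a rule of 3-fold the count was 2 (Nr4a1 and Egr2), and with 1.5-fold it was 4. Dropping the filter on dim probes, or using the flag for a positive and significant signal, let in 7 and 6 of the genes. Counts over all genes moved most: normexp gave 61 higher and 31 lower genes, no filter 1062 and 1545, and the positive and significant flag 439 and 543. The share of higher among these calls was 60.3% in the report, 40.7% with no filter and 44.7% with that flag. The medians of the intestinal, neuronal and other nuclear receptor lists changed sign between alternatives, within -0.07 to 0.01, -0.48 to 0.17 and -0.04 to 0.09. The cause was not tested. No paired analysis was possible because each group has 1 array. Signal over background limits Nr4a1 on the water array, Nr4a2 and Nr4a3, and leaves Egr3 and Egr4 without a ratio. Spot errors are large for Nr4a2 and Nr4a3, at 0.34 each, and smaller for Nr4a1, at 0.09 over 10 spots.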
